A study of Mus musculus with 7 samples.

Results

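The genes described here are 3 fibroblast growth factor (FGF) receptors (Fgfr1, Fgfr2 and Fgfr3), 3 Sprouty genes (Spry1, Spry2 and Spry4), the phosphatase gene Dusp6 and 3 ETS transcription factor genes (Etv1, Etv4 and Etv5). They were chosen by name as receptors and feedback genes of 1 pathway, each read from the probe set whose only gene symbol is that gene, and all 10 were among the 19938 genes measured. Cells came from the cerebral cortex of C57BL/6 mouse embryos, which were electroporated on embryonic day 13 with constructs that also carried green fluorescent protein (GFP), and GFP-positive cells were collected by flow sorting 24 h later, at embryonic day 14. The 4 control samples are labelled wild type, and the 3 other samples received a construct against Trnp1, which encodes a nuclear protein of radial glia. RNA of each sample was put on 1 array, and all values below are log2 levels as deposited. The labels call the samples biological replicates without saying how many embryos each holds or which construct the controls received. A knockdown by electroporation reaches only the cells that took up the construct.

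FGFs bind receptor tyrosine kinases, and the active receptor signals through Ras, Raf and MEK to the MAP kinases ERK1 and ERK2. ERK signalling switches on ETS factors of the Etv group and also its own inhibitors. Sprouty proteins act upstream, between receptor and Raf, and the phosphatase DUSP6 removes the activating phosphates from ERK itself. In the embryonic cortex FGF receptors are carried by radial glia, the apical stem cells, where FGF signalling is known to favour self-renewal over neuron production.

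Promoter windows (RefSeq, build GRCm38.p6) each spanned 250 bases before to 50 bases after an annotated start. For 7 of the 10 genes, 10 windows were read. Fgfr1, Spry4 and Etv4 are not shown. The ETS core was searched only as the letters CCGGAA, on both strands, since the Etv genes encode ETS factors. Other forms of the core were not searched. These letters stood in 1 of the 10 windows, that of Spry2, against 14.9% of all 32851 windows of this length. These 2 windows are printed because they belong to feedback inhibitors whose levels varied widely between arrays, Dusp6 (chr10:99262981-99263280, plus strand) and Spry2 (chr14:105896770-105897069, minus strand, printed in the direction of the gene). Capitals mark CCGGAA, whose first base in the Spry2 window lies 34 bases after the start site. The Dusp6 window does not hold these letters on either strand.
Dusp6: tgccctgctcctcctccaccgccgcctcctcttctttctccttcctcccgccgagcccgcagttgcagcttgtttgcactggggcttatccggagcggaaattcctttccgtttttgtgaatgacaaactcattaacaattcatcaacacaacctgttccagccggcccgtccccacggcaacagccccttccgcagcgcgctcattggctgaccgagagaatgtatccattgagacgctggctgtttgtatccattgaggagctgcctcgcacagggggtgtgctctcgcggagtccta
Spry2: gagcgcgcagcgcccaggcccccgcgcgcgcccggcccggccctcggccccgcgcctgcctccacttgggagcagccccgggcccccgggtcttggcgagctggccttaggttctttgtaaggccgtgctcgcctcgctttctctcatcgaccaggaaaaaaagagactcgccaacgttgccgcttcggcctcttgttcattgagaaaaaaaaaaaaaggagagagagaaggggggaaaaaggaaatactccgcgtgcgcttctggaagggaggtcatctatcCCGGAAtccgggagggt
The absence of these letters from a window says nothing about other forms of the core in it, or about binding elsewhere in the gene.

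Across all genes no difference between knockdown and control passed limma's test with Benjamini-Hochberg adjustment (0 of 19938 genes, smallest adjusted p = 0.736), while 439 genes on the higher and 719 on the lower side had an unadjusted p under 0.05. Trnp1 itself read 5.07, 4.999, 5.24 and 5.22 in the controls and 4.80, 4.85 and 4.55 in the knockdown arrays. Its groups did not overlap, and the difference was -0.40 (SE 0.12). Radial glia and neurons were both represented by their defining genes, with Fabp7 at a mean of 11.2 in controls and 11.4 in knockdown arrays, and Neurod6 at 11.1 and 10.4, where the groups did not overlap. Of 9 neuron genes 7 were lower by sign (median -0.39, 3 with groups apart). Of 11 radial glia genes 6 were lower (median -0.003, 1 with groups apart). Over all genes the groups lay apart for 2.59% on the higher and 3.07% on the lower side. Genes of other cells were also present in the sorted samples. The mean level of 7 endothelium and mural cell markers ran from 4.41 to 6.84 in controls and from 5.23 to 7.39 in knockdown arrays. The mean of 6 microglia markers ran from 5.86 to 8.64 and from 6.75 to 7.97, and that of 4 erythroid genes from 7.19 to 8.53 and from 7.76 to 8.91. The largest median difference of the 11 cell type lists was that of 6 interneuron genes, all higher by sign (median 1.21), of which Dlx5 (2.14, SE 0.69) and Gad2 (1.07, SE 0.40) had groups apart. Their mean level was 4.20 to 4.56 in controls and 4.90, 6.82 and 4.66 in knockdown replicates 1 to 3, so that replicate 2 stood apart. Of 8 intermediate progenitor genes 6 were lower by sign (median -0.16, 1 with groups apart). The median difference was 0.14 over 6 meninges and mesenchyme genes and -0.17 over 5 hem and choroid plexus genes. It was 0.09 over 5 anterior midline genes and 0.04 over 8 astrocyte and oligodendrocyte genes. The part of these cells in the results below was not tested. In such bulk samples fewer cells of a type and less RNA per cell cannot be told apart.

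Of the 10 genes 0 passed limma's test over all genes, beside 0% of all genes. None reached an unadjusted p under 0.05 either, against 2.20% of all genes on the higher and 3.61% on the lower side. In none of them did the knockdown arrays lie wholly apart from the controls, against 2.59% of all genes with every knockdown array above and 3.07% with every one below. By sign, 7 of the 10 differences were above 0 and 3 below, with a median of 0.12 beside -0.001 over all genes. This tally was 5 to 5 with a median of 0.01 without knockdown replicate 1, beside -0.0075 over all genes. With the array medians set equal it was also 5 to 5 with a median of 0.01. The median of all genes was then -0.107, so there the 10 genes still lay above it. The largest differences were those of Dusp6 (1.12), Fgfr3 (0.73) and Etv5 (-0.51), and each interval included 0. The genes were more variable than most. For 7 of the 10 the pooled standard deviation (SD) within groups lay above the 75th percentile of all genes. The mean level of 9 of the 10 also lay above the median of all genes, and spread was not compared among genes of like level.

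**Figure D1:**
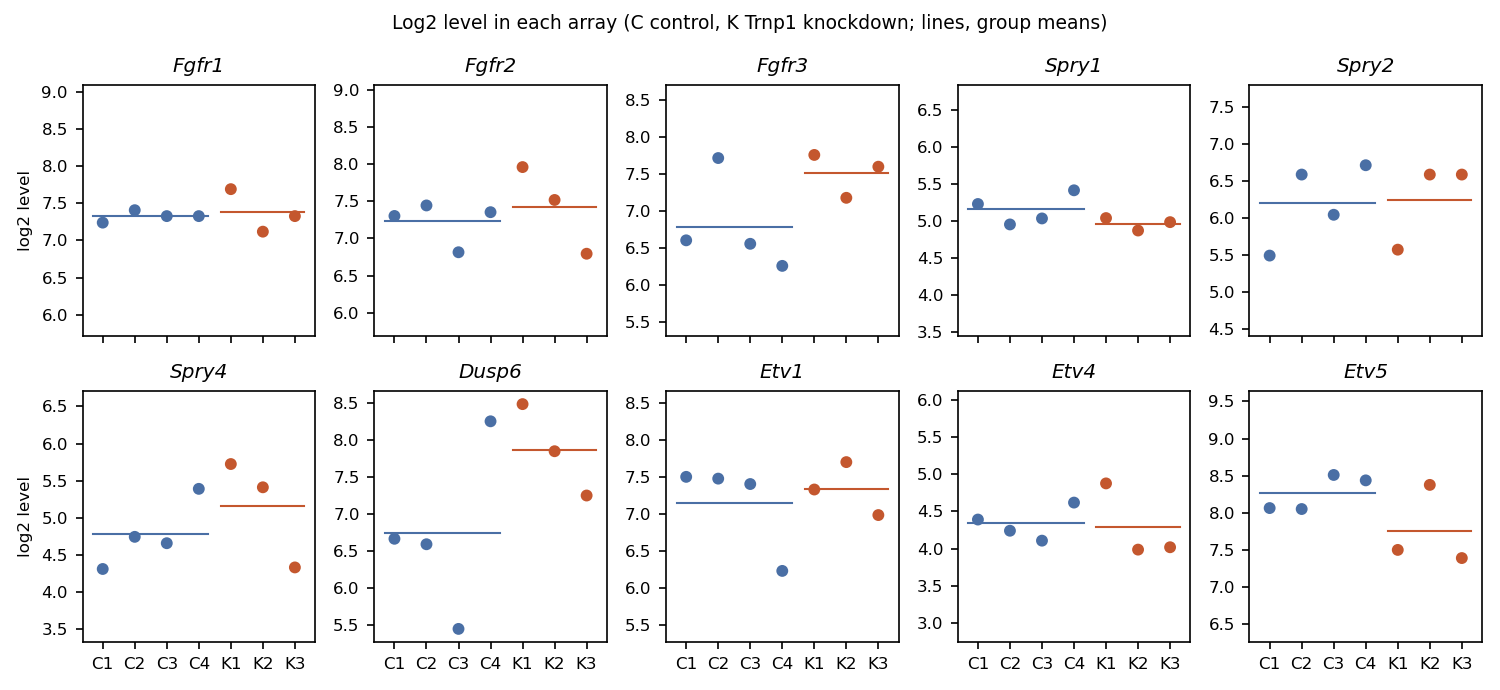
Log2 level (vertical axis) of the 10 genes in each of the 4 control arrays (C1 to C4, blue) and 3 Trnp1 knockdown arrays (K1 to K3, red), with lines at the group means. All panels span the same number of log2 units, and in every panel the groups overlap. Dusp6 spans the most, from 5.45 to 8.48.

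Among the receptors Fgfr1, which is expressed widely in the ventricular zone, was the steadiest. Its log2 level was 7.24, 7.41, 7.33 and 7.33 in control replicates 1 to 4 and 7.69, 7.12 and 7.33 in knockdown replicates 1 to 3. The knockdown arrays lay on both sides of the narrow control range, with replicate 1 above it and replicate 2 below. The group means were 7.33 ± 0.0686 (SD, n = 4) and 7.38 ± 0.290 (SD, n = 3), a difference of 0.05 (SE 0.15, 95% interval -0.30 to 0.40, limma adjusted p = 0.952). Control replicates 3 and 4 and knockdown replicate 3 carried the same value to the last deposited digit. So did 3 arrays for Spry2, and in all 7.22% of genes had 3 or more arrays at 1 value.

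Fgfr2, the receptor with splice forms that favour different ligands, read 7.30, 7.45, 6.81 and 7.36 in controls and 7.96, 7.52 and 6.79 in knockdown arrays. Knockdown replicates 1 and 2 were above every control and replicate 3 below every control. The difference was 0.20 (SE 0.29, 95% interval -0.47 to 0.87, limma adjusted p = 0.908), and it was -0.07 without knockdown replicate 1.

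Fgfr3, a receptor of ventricular zone progenitors with higher expression in the caudal and lateral cortex, had the clearest difference of the receptors. It read 6.60, 7.71, 6.55 and 6.26 in controls and 7.75, 7.17 and 7.59 in knockdown arrays. All knockdown arrays were above 3 of the 4 controls, while control replicate 2 lay within the knockdown range. The means were 6.78 ± 0.639 (SD, n = 4) and 7.51 ± 0.299 (SD, n = 3), which is a difference of 0.73 (SE 0.35, 95% interval -0.08 to 1.54) or 1.66-fold. An exact permutation test, two-sided over the 35 divisions of the arrays into 4 and 3, gave p = 0.143, where the smallest possible value is 0.0286, and limma's adjusted p was 0.825. Without control replicate 2 the difference was 1.04, with an adjusted p of 0.939 by limma. It was 0.55 without control replicate 4.

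**Figure D2:**
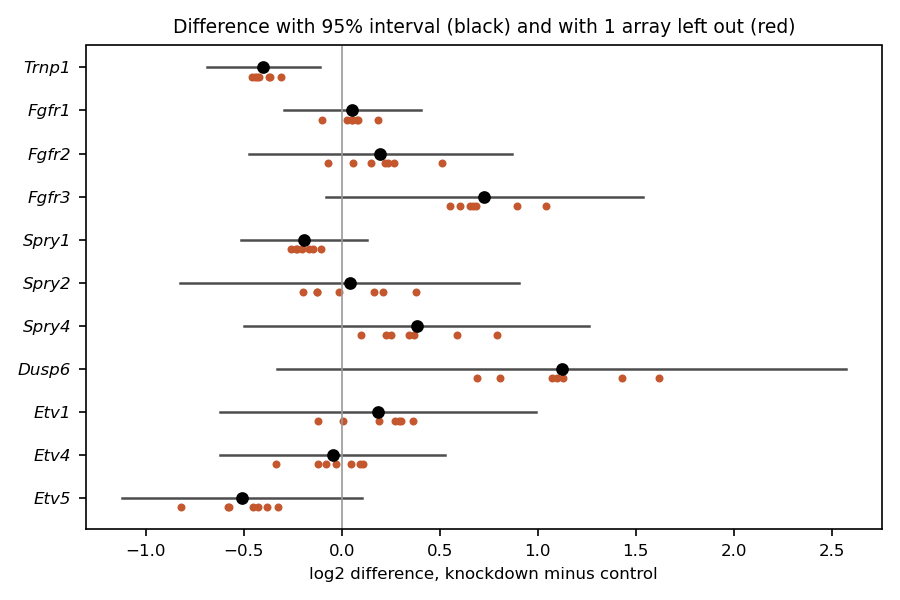
Log2 difference, knockdown minus control, for Trnp1 and the 10 genes, with the 95% interval of limma over all 7 arrays (black) and the differences after leaving out each array in turn (red points). Only the interval of Trnp1 keeps clear of 0, and the red points of Fgfr1, Fgfr2, Spry2, Etv1 and Etv4 lie on both sides of 0.

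The 3 Sprouty genes showed no shared direction. Spry1, an inhibitor of Ras activation by growth factor receptors, read 5.23, 4.95, 5.03 and 5.41 in controls and 5.04, 4.87 and 4.98 in knockdown arrays. Control replicates 1 and 4 were above all others, and the other controls lay within the knockdown range. The difference was -0.19 (SE 0.14, 95% interval -0.52 to 0.13, limma adjusted p = 0.830), and it was -0.11 without control replicate 4.

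Spry2, the Sprouty gene whose window held CCGGAA, read 5.49, 6.585, 6.04 and 6.71 in controls and 5.57, 6.585 and 6.585 in knockdown arrays. Each group held high and low arrays, with control replicate 1 and knockdown replicate 1 the lowest. The means of 6.21 ± 0.559 (SD, n = 4) and 6.25 ± 0.585 (SD, n = 3) differed by 0.04 (SE 0.37). The 95% interval ran from -0.82 to 0.90, and differences within that range could not be resolved with this number of arrays.

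Spry4, another Sprouty inhibitor that is itself induced by ERK signalling, read 4.31, 4.74, 4.65 and 5.39 in controls and 5.72, 5.41 and 4.33 in knockdown arrays. Control replicate 4 and knockdown replicates 1 and 2 were high, and knockdown replicate 3 was close to the lowest control. The difference was 0.38 (SE 0.38, 95% interval -0.50 to 1.26, limma adjusted p = 0.869). Leaving out knockdown replicate 3 gave 0.79, and leaving out replicate 1 gave 0.10.

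Dusp6, the ERK phosphatase, had both the largest difference and the largest spread. It read 6.67, 6.59, 5.45 and 8.25 in controls and 8.48, 7.85 and 7.25 in knockdown arrays. Every knockdown array was above control replicates 1, 2 and 3, but control replicate 4 was second only to knockdown replicate 1. The controls alone spanned 2.80 log2 units, or 6.98-fold, and the pooled SD of 0.974 lay at percentile 98.3 of all genes. The means were 6.74 ± 1.15 (SD, n = 4) and 7.86 ± 0.617 (SD, n = 3), and their difference was 1.12 (SE 0.62, 95% interval -0.33 to 2.57) or 2.17-fold. Neither the exact two-sided permutation test (p = 0.171) nor limma (adjusted p = 0.825) called it. Leaving out control replicate 4 gave a difference of 1.62 and leaving out control replicate 3 gave 0.69, with limma's adjusted p at 0.615 or more under every alternative.

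Levels of Dusp6 went up and down with markers of blood vessels in the same arrays. The mean level of the endothelium and mural cell list was 4.69, 4.71, 4.41 and 6.84 in controls and 7.39, 6.29 and 5.23 in knockdown arrays. The arrays fell in the same order as for Dusp6, except that control replicates 1 and 2 changed places. All 7 of the listed genes had a higher mean in knockdown arrays, by 0.70 to 1.69, and none passed the test. Cdh5, the endothelial cadherin, read 5.06, 5.27, 3.83 and 8.37 in controls and 8.54, 7.53 and 5.89 in knockdown arrays. With clone-like and small RNA symbols left out, Cdh5 was among the 3 genes of highest r with Dusp6 over the 7 arrays (Pearson r = 0.982, Spearman rho = 0.964). The others were Eogt (r = 0.982, rho = 1), a glycosyltransferase of EGF repeats, and Vps33b (r = 0.980, rho = 1), an endosomal sorting gene. These samples had been sorted for GFP, and the part of vessel cells in the Dusp6 levels was not tested.

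With the vessel list itself the correlation of Dusp6 over the 7 arrays was r = 0.939 (permutation p = 0.00238) and rho = 0.964 (permutation p = 0.00278), both exact, or 0.0238 and 0.0278 when adjusted over the 10 genes examined. It was r = 0.891 without knockdown replicate 1 and control replicate 4, the 2 arrays farthest from the median of the list. This relation was looked for after the values had been seen. The adjusted p-values do not allow for the choice of this list among the 11 cell type lists, so they are a description only. The other cell type lists were not compared with the 10 genes in this way. Spry4 also followed the list, with r = 0.896 (exact permutation p = 0.0143, adjusted 0.0714) and rho = 0.786 (exact permutation p = 0.048, adjusted 0.24), and r = 0.729 without the same 2 arrays. The other 8 genes had r between -0.38 and 0.70, and none of these passed the adjustment. The 3 genes most like Spry4 were Sdc2, a heparan sulfate carrier (r = 0.993, rho = 0.929), Dnase2a (r = 0.987, rho = 0.964) and the retinoic acid receptor Rara (r = 0.981, rho = 1).

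**Figure D3:**
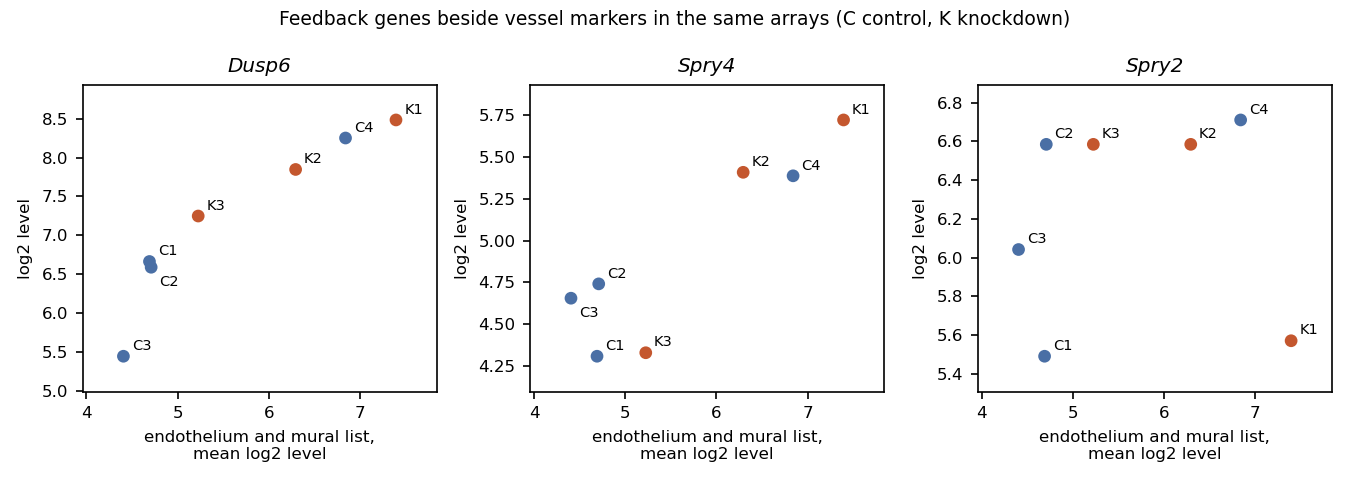
Log2 level of Dusp6, Spry4 and Spry2 (vertical axes) against the mean log2 level of 7 endothelium and mural cell markers (horizontal axis), 1 point for each control (C, blue) and knockdown (K, red) array. Dusp6 climbs with the markers from control replicate 3 (5.45) to knockdown replicate 1 (8.48), while Spry2 is low in knockdown replicate 1 (5.57), where the markers are highest.

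Fgfr3 did not share this order, since it was lowest in control replicate 4, where the vessel markers were high (r = 0.126 with the list, exact permutation p = 0.771). The genes closest to Fgfr3 were Spata46 (r = 0.990, rho = 0.964), Nemp2 (r = 0.986, rho = 0.929) and Cdk10 (r = 0.968, rho = 0.857), a cyclin-dependent kinase. As they were picked for the highest r among all genes, clone-like and small RNA symbols left out, such values are a description only.

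The ETS factors, which carry ERK signals to the genome, showed no shared direction either. Etv5, a factor of cortical progenitors, read 8.06, 8.05, 8.51 and 8.44 in controls and 7.50, 8.37 and 7.39 in knockdown arrays. Knockdown replicates 1 and 3 were below every control, and replicate 2 lay within the control range. The means were 8.26 ± 0.243 (SD, n = 4) and 7.75 ± 0.541 (SD, n = 3), a difference of -0.51 (SE 0.26, 95% interval -1.12 to 0.10) or 1.43-fold lower. The exact two-sided permutation test gave p = 0.114 and limma's adjusted p was 0.825. Without knockdown replicate 2 the difference was -0.82 (limma adjusted p = 0.204), and without replicate 3 it was -0.33. A further probe set for Etv5 read 6.98, 6.64, 6.02 and 7.10 in controls and 5.92, 6.91 and 6.06 in knockdown arrays. It differed by -0.38 (SE 0.33), in the same direction, but control replicate 3 was low there and the highest of all arrays in the main probe set.

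Etv1, which also marks deep-layer projection neurons of the later cortex, read 7.50, 7.48, 7.40 and 6.23 in controls and 7.33, 7.70 and 6.98 in knockdown arrays. Control replicate 4 stood well below the other controls, which lay within 0.10 of each other. The difference was 0.19 (SE 0.34, 95% interval -0.62 to 0.99, limma adjusted p = 0.922), and it was -0.12 without control replicate 4. The second Etv1 probe set differed by 0.17 (SE 0.41), and there control replicate 3 was low as well (6.50 beside 6.24 in replicate 4).

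Etv4, the remaining factor of this group, read 4.39, 4.24, 4.11 and 4.62 in controls and 4.88, 3.99 and 4.02 in knockdown arrays. Knockdown replicate 1 was above every control and the other two knockdown arrays below every control. The difference was -0.05 (SE 0.25, 95% interval -0.62 to 0.53, limma adjusted p = 0.977).

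Pairs of these genes were then compared over the 7 arrays. Of the 45 pairs, 26 had r above 0, the median r was 0.06, and none passed after adjustment over the pairs (smallest adjusted p = 0.478 by exact permutation over all 5040 pairings). The pair with the smallest p was Fgfr2 with Spry4 (r = 0.765, exact permutation p = 0.0431, rho = 0.857, p = 0.0238), and r was 0.433 without knockdown replicates 1 and 3. Spry4 and Dusp6, both feedback inhibitors, had r = 0.743 (exact permutation p = 0.0603) and rho = 0.679 (p = 0.11), and r = 0.524 without knockdown replicates 1 and 2. With deviations from the group means in place of the levels, r was 0.746 for Fgfr2 with Spry4 and 0.700 for Spry4 with Dusp6. Counted by array, 7 of the 10 genes were above their own median in knockdown replicate 1, 6 in control replicate 4 and 5 in knockdown replicate 2. Only 1 was so in control replicate 3 and in knockdown replicate 3.

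The rest of the pathway was read from 7 lists with 108 genes, of which 99 were measured. No gene of these lists passed over all genes by limma, and 1 gene on the higher and 3 on the lower side had an unadjusted p under 0.05, beside 2.20% and 3.61% of all genes. There were 55 higher and 44 lower by sign alone. The groups did not overlap for 3 higher and 3 lower genes, named below, a share near the 2.59% and 3.07% of all genes. The 18 FGF ligands lay close to 0, with differences from -0.22 to 0.25 and a median of 0.02. Their mean level was only 3.95 to 4.10 in controls and 3.98 to 4.18 in knockdown arrays. The median of all probe sets was higher, at 4.40 to 4.61 over the arrays. Differences of dim probe sets are compressed by the normalization, so small values here do not show that the ligands were unchanged. Fgf9 differed by 0.22 (SE 0.10) without overlap, at means of 3.69 in controls and 3.91 in knockdown arrays. Fgf18 differed by 0.25 (SE 0.17), Fgf4 by -0.22 (SE 0.16) and Fgf15 by 0.03 (SE 0.28). Fgf8, a patterning signal of the rostral forebrain, differed by -0.05 (SE 0.12). Of the 7 other receptors and co-receptors 4 were higher by sign and 3 lower. Their largest differences were those of the FLRT genes, which encode transmembrane partners of FGF receptors and of latrophilins and Unc5 proteins. Flrt2 differed by 0.99 (SE 0.44), Flrt1 by -0.59 (SE 0.28) and Flrt3 by -0.42 (SE 0.24), and the groups overlapped for each. Leaving out knockdown replicate 3 gave 0.52 for Flrt2, and leaving out replicate 2 gave -0.335 for Flrt1 and -0.67 for Flrt3.

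The adaptors and the kinase cascade differed little. The 9 measured adaptors had a median difference of -0.05, with Sos2 at 0.45 (SE 0.23), Shc1 at 0.51 (SE 0.29), Frs3 at -0.27 (SE 0.16), Crkl at -0.30 (SE 0.19) and Gab1 at -0.09 (SE 0.17). The 9 measured genes of Ras and the MAP kinase core had a median of -0.004 and lay between -0.24 and 0.36. Nras differed by -0.24 (SE 0.13), the scaffold gene Ksr1 by 0.36 (SE 0.23) and the MEK gene Map2k2 by -0.12 (SE 0.15). Araf, a Raf kinase gene, differed by only 0.16 (SE 0.10), yet all its knockdown arrays (7.11, 6.97 and 7.15) lay above all controls (6.84, 6.96, 6.89 and 6.97), by the narrowest of margins in knockdown replicate 2.

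The list of other negative regulators held the gene with the largest difference among the 99 listed genes measured, Dusp14, a phosphatase gene related to Dusp6. Dusp14 read 8.39, 8.39, 8.82 and 8.60 in controls and 6.75, 7.81 and 6.31 in knockdown arrays, so that every knockdown array was below every control. Its difference was -1.59 (SE 0.33) or 3.01-fold lower, with p = 0.0286 by the exact two-sided permutation test, the smallest these arrays allow, and an adjusted p of 0.825 by limma. Dusp4, a nuclear ERK phosphatase, read 9.20, 8.04, 7.93 and 8.57 in controls and 7.14, 8.11 and 7.12 in knockdown arrays. Knockdown replicates 1 and 3 were below all controls, replicate 2 was not, and the difference was -0.98 (SE 0.37, limma adjusted p = 0.825). Dusp7 differed by -0.66 (SE 0.32), the Ras inhibitor gene Rasa1 by -0.26 (SE 0.15) and Dusp1 by -0.18 (SE 0.36). The 10 Dusp genes of this list were divided by sign, 5 higher and 5 lower, and the highest was Dusp2 at 0.40 (SE 0.39). As a list the 22 genes went both ways, 14 higher and 8 lower by sign, with a median of 0.10.

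**Figure D4:**
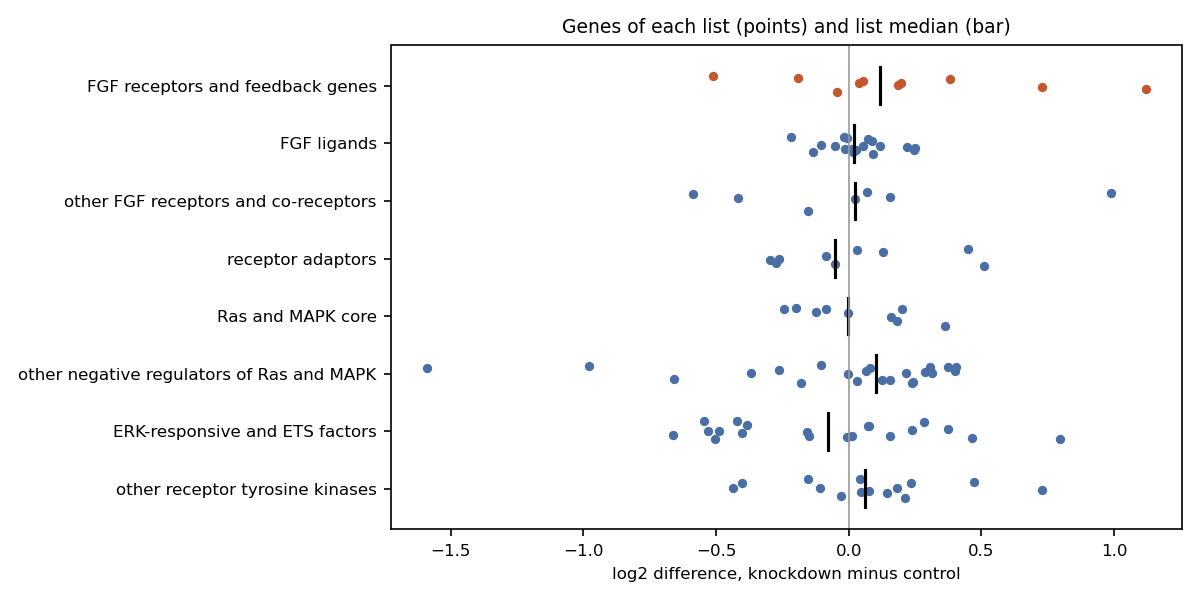
Log2 difference, knockdown minus control (horizontal axis), of each measured gene (points) in the FGF receptor and feedback group (red) and in 7 pathway lists (blue), with a bar at the median of each. The medians lie between -0.08 and 0.12, and Dusp14 is the point farthest to the left (-1.59).

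Genes that respond to ERK, with further ETS factors, had a median difference of -0.08 over 20 genes, 9 higher and 11 lower by sign. Elk4, a partner of serum response factor, read 6.79, 6.59, 6.67 and 7.40 in controls and 6.55, 6.57 and 6.20 in knockdown arrays, which did not overlap (difference -0.42, SE 0.22). Gabpa differed by -0.38 (SE 0.25) and Elk1 by -0.15 (SE 0.10). Jun and the cyclin gene Ccnd1, frequent targets of ERK signalling and the 2 genes of highest level in the list, differed by 0.07 (SE 0.22) and 0.24 (SE 0.24). Other ERK-responsive genes were lower by sign, among them Egr1 (-0.66), Ier2 (-0.55), Myc (-0.53) and Fos (-0.50). Among the 9 higher genes were Ets1 (0.80) and Ier3 (0.28). None of the 20 reached an unadjusted p under 0.05 by limma. The mean level of this list ran from 7.05 to 7.90 in controls and from 6.68 to 7.68 in knockdown arrays, so the groups overlapped.

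Of 14 other receptor tyrosine kinase genes, 9 were higher and 5 lower by sign. Igf1r, the receptor of insulin-like growth factors, read 7.20, 6.87, 6.93 and 7.01 in controls and 7.70, 7.30 and 7.43 in knockdown arrays. The groups did not overlap, and the difference was 0.47 (SE 0.14, exact two-sided permutation p = 0.0286, limma adjusted p = 0.825). Ddr1, a collagen receptor, differed by -0.40 (SE 0.16) with groups that did not overlap either, and Insr by 0.08 (SE 0.22). Pdgfrb, which also marks mural cells, differed by 0.73 (SE 0.38).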

How the data were processed

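The values deposited by the authors are log2 levels, for which the submitters' processing notes name RMA and Affymetrix Expression Console 1.2. RMA subtracts background, equalises array distributions by quantiles and summarises each probe set, and it compresses differences of dim probe sets. The labels' protocols name a whole-transcriptome amplification kit, used for small amounts of RNA. The build behind the array annotation was not given in the sources used here. Of 35556 probe sets, 21789 had 1 gene symbol, 1621 several and 12146 none, and symbols were updated by Entrez identifier (21698 matched). Each gene was read from the probe set of highest mean level (all 7 arrays), which gave 19938 genes.

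Groups were compared with limma 3.58.1 in R 4.3.3 (lmFit, eBayes), two-sided, over all genes, without covariates, at an adjusted p of 0.05. Single values were also tested by exact permutation over 35 divisions of the arrays. The p-values of the group comparisons set the difference of group means against the spread between these samples. The number of arrays limits the precision. In a test on simulated data over 19938 genes, 200 genes drawn from all genes were changed in each of 5 runs. Changes of 1 log2 unit were recovered by limma in 51.4% of cases and changes of 2 in 85.4%, with 8.4 false calls per run. These rates are averages over genes of every spread. Noise was drawn from a normal distribution independently for each gene and array, so shifts shared by many genes in an array were not simulated. The rates describe that setting and may not hold for these arrays. Recovery at the wider spread of most of the 10 genes was not computed. The genes and lists were chosen with earlier results of these data known. Named are, beside the 10 genes and Trnp1, the 3 genes of smallest p and the 2 of highest level in each pathway list. Dusp2, Egr1, Ier2, Myc, Fos, Ets1 and Ier3 are named in addition. For each of the 3 most variable genes, the 3 genes of highest positive r are named, with clone-like and small RNA symbols left out. All 11 cell type lists are given by counts, medians or levels. Alternatives were other variance priors, array weights, scalings, filters on dim genes, probe set rules, the replicate block and each array left out.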

Additional observations from a re-analysis of the deposited data

Results flagged for a closer look

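In 4 results control replicate 4 stood apart from the other 3 controls. Its gap, relative to the range of the 4 controls, exceeds Dixon's limit for 4 samples, which chance exceeds in about 1 of 20 groups. Its Etv1 level was 6.23, and its mean level was 6.71 for the list of other negative regulators of Ras and MAPK, 6.84 for endothelium and mural cell markers and 8.53 for erythroid genes. For the negative regulators the gap was small in log2 units, since the other controls read 6.586, 6.585 and 6.594. The knockdown arrays ran from 6.37 to 6.79 there. The items examined were Trnp1, the 10 genes, the 7 pathway lists and the 11 cell type lists, all in the same 4 control arrays, so they are not independent. Groups of 3 arrays were not examined in this way.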

How the results depend on the processing

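With any of the alternatives run, 0 genes, and so none of the 10 genes or of the lists, passed limma's test at 0.05, and 0 passed at 0.1 with all arrays. Fgfr3, Spry1, Spry4, Dusp6 and Etv5 kept their direction under every alternative. Setting the array medians equal moved the median of all genes to -0.11 and the genes at an unadjusted p under 0.05 from 439 higher and 719 lower to 183 and 1507. With the dimmest 50% of genes left out these counts were 182 and 477, and without knockdown replicate 2 they were 882 and 1522. The lower count was 469 without knockdown replicate 1 and 476 without replicate 3. An unadjusted p under 0.05 was reached by Fgfr3 without control replicate 2 and after cyclic loess, by Dusp6 without control replicate 4 and in the replicate block described next, by Etv5 without knockdown replicate 2 and by Spry4 without knockdown replicate 3. Control 4 has no partner in the replicate block, which therefore rests on 3 pairs. It gave Dusp6 a difference of 1.63 (limma adjusted p = 0.665), but same-numbered arrays did not deviate together (r = 0.0278, -0.0507 and 0.0716), so the numbers were not taken as pairs.

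Small differences changed sign, and the cause was not tested. With array weights Spry2, Etv4, Fgf15 and Insr were -0.0624, 0.0895, -0.0535 and -0.00504. With equal medians Fgfr1, Spry2, Fgf15, Jun and Insr were -0.0527, -0.0662, -0.0779, -0.0312 and -0.0306. Fgf15 was -0.0672 after a further quantile normalization, and after cyclic loess Fgf15, Gab1 and Map2k2 were -0.00147, 0.043 and 0.00159. In the replicate block Etv1, Etv4 and Fgf15 were -0.122, 0.048 and -0.166. With 1 array left out the ranges were -0.103 to 0.184 for Fgfr1, -0.0728 to 0.512 for Fgfr2, -0.199 to 0.378 for Spry2, -0.122 to 0.362 for Etv1 and -0.338 to 0.109 for Etv4. They were -0.133 to 0.0327 for Fgf8, -0.166 to 0.245 for Fgf15, -0.182 to 0.0732 for Gab1, -0.484 to 0.214 for Dusp1, -0.0743 to 0.272 for Jun, -0.0185 to 0.429 for Ccnd1 and -0.102 to 0.192 for Insr.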
